A study of Mus musculus with 8 samples.

Results

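Genes of the ductular reaction and of the simple epithelial keratins were examined in mouse liver: Epcam, Cldn7, Krt7, Krt19, Sox9, Sox4, Krt8, Krt18 and Krt23. All 9 symbols were found among the 52110 named rows of the deposited expression table. They are biliary and progenitor markers and simple epithelial keratins, selected on their FPKM difference between the groups in these same libraries. The contrast is therefore described for them and not tested. The livers came from wild-type mice in which a high-fat diet without choline and with defined L-amino acids had been used to induce steatohepatitis. Each group had received circulating extracellular vesicles of human volunteers by vein. For RIC_hEV (4 libraries) the volunteers had undergone remote limb ischemic conditioning, in which the flow of blood to a limb is stopped and released. For ctr_hEV (4 libraries) they had undergone a sham procedure. Both groups thus share the diet and an injection of human vesicles, and no liver without vesicles or on a normal diet was analysed here. The sources used here do not give strain, age, sex, dose or time. Nor do they say whether each library is 1 mouse, so errors measure only the spread between these libraries.

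A ductular reaction is the outgrowth of small bile-duct-like cells at the edge of the portal tracts in an injured liver. These cells carry EPCAM, an adhesion protein of epithelia that binds claudin-7, the product of Cldn7, and the keratins KRT7 and KRT19. SOX9 is the transcription factor of embryonic and adult bile ducts, and SOX4 acts beside it in duct formation. Healthy hepatocytes hold almost only KRT8 and KRT18. These form filaments as obligate pairs of 1 type II keratin (KRT7 or KRT8) with 1 type I keratin (KRT18, KRT19 or KRT23), and their amounts are known to go up in steatohepatitis, where they gather in Mallory-Denk bodies.

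The unit is FPKM, a count of fragments scaled by transcript length and by the size of the library, so levels can be compared between genes as far as the unstated transcript lengths hold. Depth was estimated at 19300000 to 28800000 fragments per library from the most common step of FPKM times exon length. Only 15.6% to 17.3% of low values lay within 0.02 of whole steps, so depths and fragment numbers are rough. At these depths the values of Cldn7 rest on about 7.51 to 123 fragments and those of Krt8 on about 7940 to 22000. The libraries were liver by their markers: 11 hepatocyte genes summed to 29600 to 44700 FPKM in ctr_hEV and 36100 to 43100 in RIC_hEV. On the first principal component of all tested genes, which held 44.4% of the variance, ctr_hEV 1 (-36.1) and ctr_hEV 3 (-23.3) stood apart from ctr_hEV 2 (-2.36), ctr_hEV 4 (16.3) and RIC_hEV (4.75 to 16.3). Differences of the members and medians of the gene lists are therefore given also without ctr_hEV 1 and ctr_hEV 3. That pair was picked with the data known, and it holds the highest values of many members, so leaving it out had to lower the control level of those genes.

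The 6 ductular genes were high in 2 control livers and low in the other libraries. Epcam, at 87635979 to 87651129 on the plus strand of chromosome 17 (mm10, GENCODE M21), was at 9.10, 1.18, 4.96 and 0.886 FPKM in libraries ctr_hEV 1 to 4 and at 1.15, 1.18, 1.11 and 0.939 in RIC_hEV 1 to 4. The level in ctr_hEV 1 was 8.31 times the RIC_hEV mean and that in ctr_hEV 3 was 4.53 times it, while ctr_hEV 2 matched the highest RIC_hEV library and ctr_hEV 4 was the lowest library of all. The group means were 4.03 ± 3.85 and 1.10 ± 0.108 FPKM (SD, n = 4 per group). Cldn7, on the plus strand of chromosome 11 (69964779 to 69967885), was at 2.29, 0.345, 1.29 and 0.245 FPKM in libraries ctr_hEV 1 to 4 and at 0.151, 0.221, 0.241 and 0.306 in RIC_hEV 1 to 4. Its control libraries followed the order of Epcam, with ctr_hEV 1 at 9.94 times and ctr_hEV 3 at 5.61 times the RIC_hEV mean. The other libraries overlapped, and RIC_hEV 4 was the lowest of its group for Epcam and the highest for Cldn7. Its means were 1.04 ± 0.955 and 0.230 ± 0.0638 FPKM.

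The sequence before both genes is shown because their products bind each other and both were high in ctr_hEV 1 and 3. With group means removed, their levels correlated (Pearson) at 0.98 over 8 libraries and at -0.07 without ctr_hEV 1 and 3. The stretches are the 250 bases upstream of a RefSeq start (GRCm38.p6, plus strand), at chr17:87635729-87635978 for Epcam and chr11:69964529-69964778 for the first of 2 Cldn7 starts, with matches to any of 6 motifs in capitals.
Epcam: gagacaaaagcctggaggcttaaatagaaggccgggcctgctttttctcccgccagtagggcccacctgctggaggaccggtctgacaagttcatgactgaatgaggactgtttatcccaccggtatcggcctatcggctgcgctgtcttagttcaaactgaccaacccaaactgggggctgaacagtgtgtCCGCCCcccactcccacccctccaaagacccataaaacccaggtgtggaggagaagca
Cldn7: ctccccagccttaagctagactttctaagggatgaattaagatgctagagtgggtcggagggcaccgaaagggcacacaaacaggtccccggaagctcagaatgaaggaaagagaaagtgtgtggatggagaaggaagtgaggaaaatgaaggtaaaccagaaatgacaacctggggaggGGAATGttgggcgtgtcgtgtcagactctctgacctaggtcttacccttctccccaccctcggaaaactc
The motifs reported, searched on both strands, were the TEAD motif GGAATG, the RBPJ motif TGGGAA, the AP-1 motif TGANTCA, the SOX motif ACAAAG, the SP1 GC box GGGCGG and the TATA box TATAAA. None of these overlapped another in the windows shown. Epcam held 1 GC box, written as its reverse complement, which 32.7% of 32851 RefSeq promoter windows of that length also hold. Cldn7 held 1 TEAD motif before this start, present in 12.6% of all windows, and an RBPJ motif and a GC box before its other start. RefSeq windows were matched for 7 of the 9 genes. Sox4 held a TEAD and an RBPJ motif, the latter present in 21.6% of all windows, Krt7 held 4 GC boxes, and Krt23 held none of the motifs. A further motif that was searched had no match in the windows of these genes. A match describes letters and is no evidence of binding.

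The biliary keratins had the same highest library. Krt7, the type II keratin of bile ducts, lies on the plus strand of chromosome 15 (101411043 to 101430313). Its level was 0.762, 0.141, 0.602 and 0.134 FPKM in libraries ctr_hEV 1 to 4 and at 0.122, 0.103, 0.168 and 0.0859 in RIC_hEV 1 to 4. Only ctr_hEV 1 and 3 lay outside the range of the other libraries. Its exons span 7049 bases when all transcripts are joined, and an FPKM scaled by that length is low for the same number of fragments. Krt19, its type I counterpart, lies on the minus strand of chromosome 11 (100140810 to 100148665). Its level was 4.18, 1.48, 2.04 and 0.810 FPKM in libraries ctr_hEV 1 to 4 and at 0.697, 0.677, 0.576 and 1.03 in RIC_hEV 1 to 4. Here ctr_hEV 2 also lay above every RIC_hEV library, and ctr_hEV 4 lay within their range. The means were 0.410 ± 0.321 and 0.120 ± 0.0355 FPKM for Krt7 and 2.13 ± 1.46 and 0.745 ± 0.197 for Krt19.

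The SOX factors held the same 2 libraries on top. Sox9, on the plus strand of chromosome 11 (112782224 to 112787760), reached 2.86, 1.0, 2.18 and 1.05 FPKM in libraries ctr_hEV 1 to 4 and at 1.26, 0.917, 1.09 and 1.14 in RIC_hEV 1 to 4. Its peak was flatter than that of Epcam, with ctr_hEV 1 at 2.59 times the RIC_hEV mean. Sox4, on the minus strand of chromosome 13 (28948919 to 28953713), reached 7.22, 1.20, 3.67 and 1.67 FPKM in libraries ctr_hEV 1 to 4 and at 1.26, 0.994, 1.14 and 1.58 in RIC_hEV 1 to 4, with ctr_hEV 1 at 5.80 times the RIC_hEV mean. An annotated non-coding RNA on the opposite strand, Gm26735, overlaps Sox4 exons, and 54.7% of the 31-base stretches of Sox4 also occur in other annotated genes. With no strand setting given, reads of both cannot be told apart and the level of Sox4 is uncertain. Group means were 1.77 ± 0.904 and 1.10 ± 0.143 FPKM for Sox9 and 3.44 ± 2.74 and 1.24 ± 0.249 for Sox4.

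**Figure D1:**
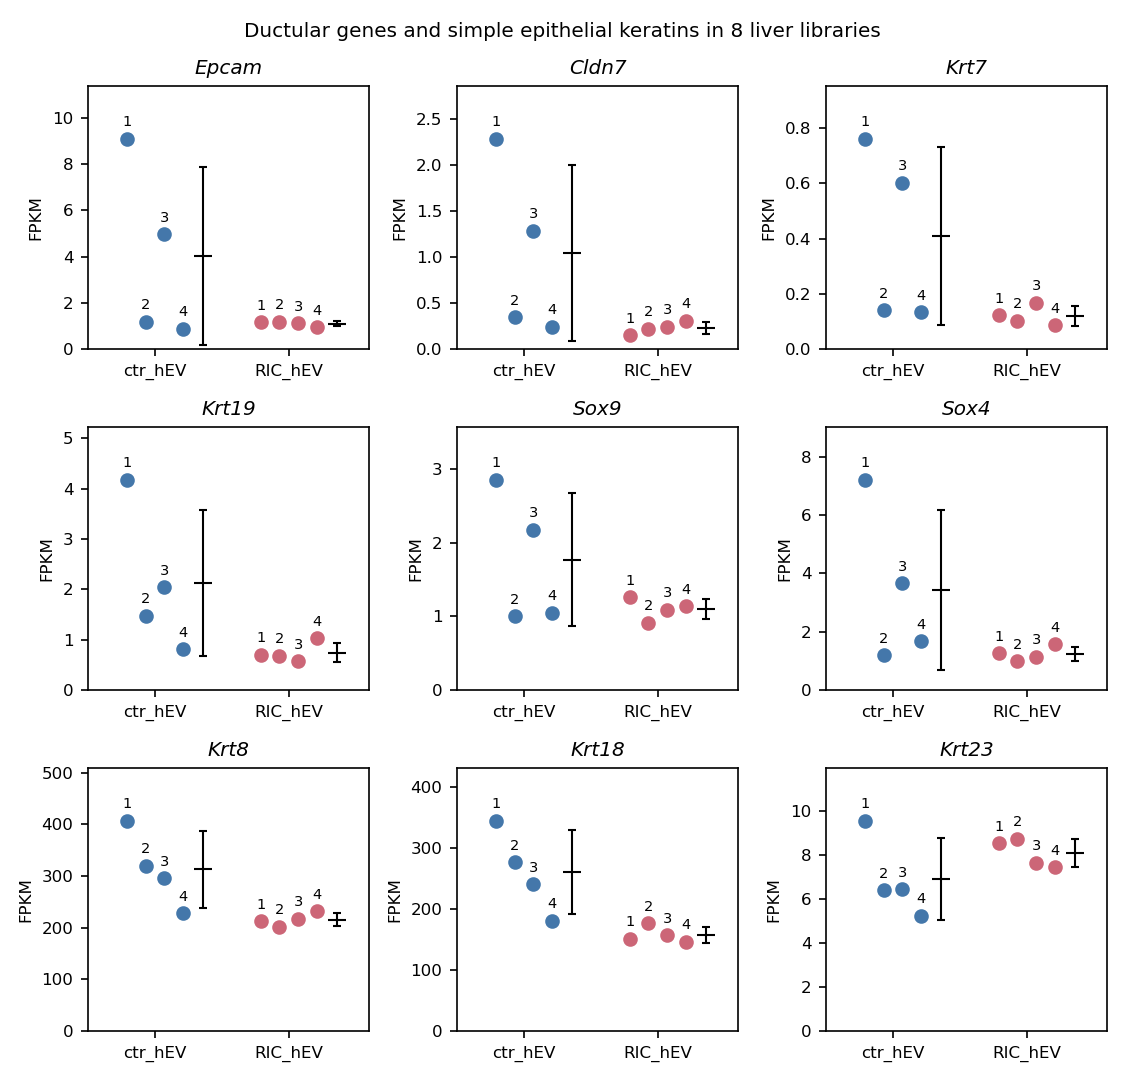
FPKM (vertical axes, each from 0) of the 9 genes in each of 8 liver libraries, with the replicate number above each point and the mean ± SD of each group beside it. In the 6 ductular genes (first 6 panels) ctr_hEV 1 is highest and ctr_hEV 3 second, while the control values of Krt8 and Krt18 are spread more evenly and Krt23 lies on average higher in RIC_hEV.

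In all 6 ductular genes ctr_hEV 1 was the highest library and ctr_hEV 3 the second. Of all 11274 tested genes, those with a mean of at least 1 FPKM, 24.0% had that order. Spread was wide in ctr_hEV, with coefficients of variation between 51.0% (Sox9) and 95.6% (Epcam), and narrower in RIC_hEV, between 9.89% (Epcam) and 29.6% (Krt7). In ctr_hEV 1 the level was at least 4 times the RIC_hEV mean in 0.346% of tested genes, a limit set after the values were seen. Among the members it was reached by Epcam, Krt19 and Sox4, and also by Krt7 and Cldn7, whose overall means of 0.265 and 0.636 FPKM lay below the filter. The members were selected on the same contrast, and Krt19 passed the filter only through ctr_hEV. Nothing is therefore read from setting the members beside either share.

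The hepatocyte keratins lay far above the other members, at overall means of 264 and 210 FPKM against 7.51 for the next, Krt23, and varied less than the ductular genes. Krt8, on the minus strand of chromosome 15 (101996698 to 102004482), was at 407, 320, 296 and 228 FPKM in libraries ctr_hEV 1 to 4 and at 212, 202, 217 and 232 in RIC_hEV 1 to 4. Its groups overlapped only through RIC_hEV 4, which lay just above ctr_hEV 4. Krt18, close by on the plus strand (102028180 to 102032027), was at 345, 277, 241 and 181 FPKM in libraries ctr_hEV 1 to 4 and at 151, 177, 157 and 146 in RIC_hEV 1 to 4. Every RIC_hEV library lay below every ctr_hEV library, by a narrow gap between RIC_hEV 2 and ctr_hEV 4. Means were 313 ± 73.8 and 216 ± 12.3 FPKM for Krt8 and 261 ± 68.8 and 158 ± 13.8 for Krt18, a RIC_hEV level 0.690 and 0.604 times that of ctr_hEV. The order of the control libraries differed from that of the ductular genes, with ctr_hEV 2 above ctr_hEV 3 in both keratins.

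Copies of these genes limit the reading of their levels. Of the 31-base stretches of Krt8 and Krt18, 36.0% and 11.4% also occur in other annotated genes. The pseudogene Krt8-ps was listed at 23.3 ± 4.69 FPKM in ctr_hEV and 15.9 ± 0.972 in RIC_hEV, with the same order of control libraries as Krt8. For the other members but Sox4 the shared part was at most 3.03%.

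The stretches upstream of Krt8 and Krt18 are shown because these neighbours encode a filament pair and their levels moved together. They run up to the first annotated base of each gene, at chr15:102004483-102004592 (minus strand) and chr15:102027966-102028179 (plus strand) in GRCm38.p6, with motif matches in capitals.
Krt8: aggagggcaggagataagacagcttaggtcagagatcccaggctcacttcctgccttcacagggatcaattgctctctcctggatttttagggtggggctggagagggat
Krt18: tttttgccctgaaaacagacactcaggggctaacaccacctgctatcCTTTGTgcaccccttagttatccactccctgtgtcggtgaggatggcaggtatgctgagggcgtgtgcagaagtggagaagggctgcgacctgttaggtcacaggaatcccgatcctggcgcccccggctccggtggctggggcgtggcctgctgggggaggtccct
Krt18 held 1 SOX motif, which 16.5% of all windows hold. The Krt8 stretch held no match, and its full RefSeq window held 1 RBPJ motif closer to the start.

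Krt23 was the only member with a higher mean in RIC_hEV. This type I keratin, known to be induced in injured liver, lies on the minus strand of chromosome 11 (99477974 to 99493137). Its level was 9.57, 6.40, 6.46 and 5.25 FPKM in libraries ctr_hEV 1 to 4 and at 8.53, 8.74, 7.65 and 7.46 in RIC_hEV 1 to 4. Means were 6.92 ± 1.85 and 8.09 ± 0.636 FPKM. The groups overlapped through ctr_hEV 1, again the highest library, while the other control libraries all lay below RIC_hEV.

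The make-up of the keratins therefore differed from library to library. The 5 keratins summed to 583 ± 146 FPKM in ctr_hEV and 383 ± 6.92 in RIC_hEV. Krt8 and Krt18 made up nearly all of it, with Krt8 at no less than 52.0% and Krt18 at 37.7% to 45.8% of the sum. Krt23 took 1.06% to 1.26% in ctr_hEV and 1.93% to 2.29% in RIC_hEV, with no overlap. Krt19 took 0.195% to 0.545% in ctr_hEV and 0.151% to 0.267% in RIC_hEV. The ratio of Krt19 to Krt23 was 0.437, 0.231, 0.316 and 0.154 in ctr_hEV 1 to 4 and 0.0817, 0.0775, 0.0753 and 0.138 in RIC_hEV 1 to 4. The groups did not overlap in it. All 5 keratins were selected on this contrast, so the separation of this ratio and of the Krt23 share follows in part from the selection. Nothing is read from it. The ratio of type II to type I keratins was 1.17 ± 0.0463 in ctr_hEV and 1.31 ± 0.173 in RIC_hEV, where it ranged from 1.08 in RIC_hEV 2 to 1.5 in RIC_hEV 4 and spanned the control values. The difference of these means was 0.14, and 0.13 without ctr_hEV 1 and 3.

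**Figure D2:**
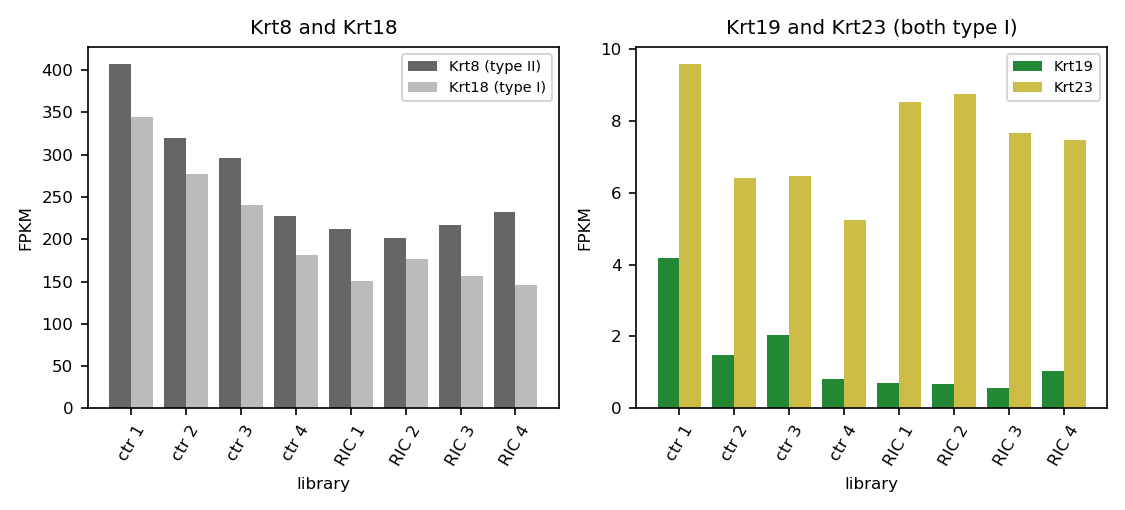
FPKM (vertical axes, from 0) of Krt8 and Krt18 (left) and of Krt19 and Krt23 (right) in each of 8 libraries. Krt8 and Krt18 are highest in ctr_hEV 1 at 407 and 345 FPKM. In the right panel Krt23 exceeds Krt19 in every library, most widely in RIC_hEV 1 to 3.

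Ordered by mean FPKM over 8 libraries, the members ran from Krt8 (264) and Krt18 (210) over Krt23 (7.51), Epcam (2.56), Sox4 (2.34), Krt19 and Sox9 (1.44 each) and Cldn7 (0.636) to Krt7 (0.265). Neighbours from Epcam to Sox9 did not differ beyond their spread. In RIC_hEV, Epcam and Sox9 stood at the same mean of 1.10 FPKM, with Sox4 at 1.24.

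On the scale of log2(FPKM + 1), 8 of the 9 members were lower in RIC_hEV. The differences, RIC_hEV minus ctr_hEV with the SE of the fit, were -0.92 ± 0.45 for Epcam, -0.79 ± 0.34 for Sox4, -0.74 ± 0.26 for Krt19, -0.69 ± 0.18 for Krt18, -0.51 ± 0.16 for Krt8, -0.34 ± 0.20 for Sox9 and 0.22 ± 0.15 for Krt23. This scale understates the change of low genes. In a fit without the filter, Cldn7 was at -0.62 ± 0.30 and Krt7 at -0.30 ± 0.15. The median of all tested genes was -0.11, and 73.0% of them were lower. Relative to that median, Epcam was at -0.81, Krt18 at -0.58, Krt8 at -0.39 and Krt23 at 0.33. None of the 7 members that passed the filter was called by limma over all genes (adjusted p under 0.05), where 0.0355% of genes were, 0.0177% lower and 0.0177% higher. At an unadjusted p under 0.05 there were 4 of 7, where 14.0% of genes were. The contrast had served to choose the members, and Krt19, at 0.745 FPKM on average in RIC_hEV, passed the filter only through ctr_hEV, so nothing is read from these counts. Groups did not overlap in 1 of 9 members, Krt18, which lay lower, as did 4.56% of tested genes (5.87% without overlap in either direction).

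Without ctr_hEV 1 and ctr_hEV 3 the difference of every member moved upward. The differences of Epcam, Sox9, Krt7, Cldn7 and Sox4 were then 0.04, 0.05, -0.02, -0.07 and -0.12. Those of Krt18, Krt8 and Krt19 were -0.51 ± 0.17, -0.32 ± 0.15 and -0.29 ± 0.16 (SE of the fit). The SE was 0.12 for Epcam and Sox9 and 0.14 for Sox4. Sox4, Krt19 and Krt8 did not differ beyond these errors, so the members are not sorted into kinds. Krt23 was at 0.42, with all RIC_hEV libraries above ctr_hEV 2 and 4, as in 5.99% of tested genes. Krt18 lay lower without overlap, as did 8.01% of tested genes. That outcome was fixed, since its groups did not overlap with all libraries and leaving out controls cannot create an overlap. Leaving out ctr_hEV 4 alone, the control library nearest to RIC_hEV, gave -0.85 for Krt18 and -0.65 for Krt8. Both then passed the adjusted threshold, as did 1.56% of tested genes, and nothing is read from this for genes selected on the contrast. Leaving out the control library nearest to RIC_hEV tends to widen the contrast. Calls in this setting are given below for other genes, and nothing is read from those either.

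**Figure D3:**
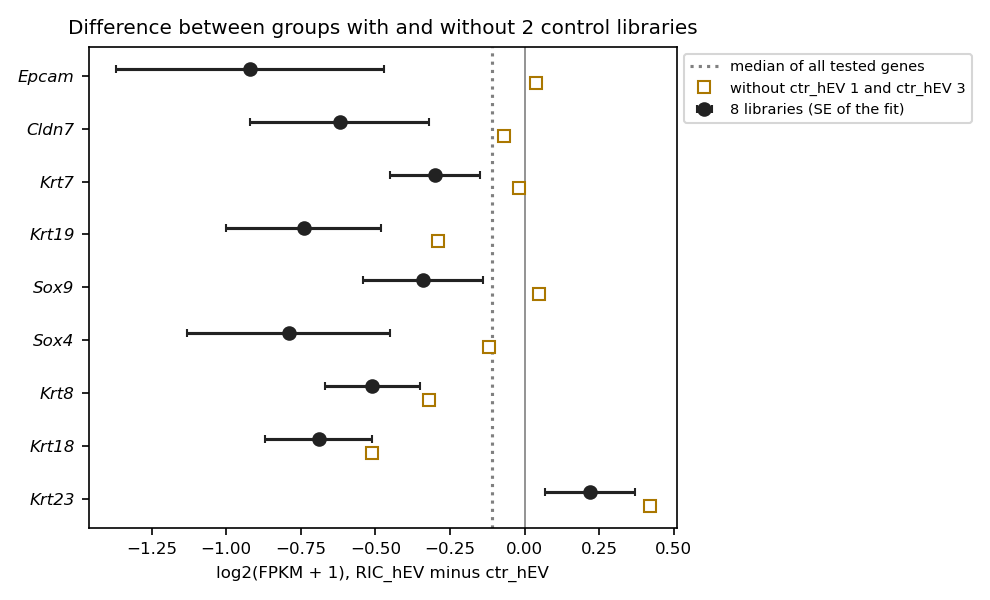
Difference between groups on the scale of log2(FPKM + 1) (horizontal axis, RIC_hEV minus ctr_hEV) for the 9 genes, from 8 libraries with the SE of the fit (filled points) and without ctr_hEV 1 and ctr_hEV 3 (open squares, no error shown). The dotted line is the median of all tested genes at -0.11. Epcam moves from -0.92 to 0.04, whereas Krt18 moves from -0.69 to -0.51.

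Other bile duct genes carried the same 2 libraries on top. Of 37 such genes in the table, ctr_hEV 1 and ctr_hEV 3 were the 2 highest libraries in 28. Among the 18 that passed the filter this held for 13, where it held for 30.0% of all tested genes. Of these 18, 16 were lower and 2 higher in RIC_hEV, with a median of -0.47, and -0.15 without ctr_hEV 1 and 3. None was called by limma over all genes, and 7, all lower, had an unadjusted p under 0.05. Of all tested genes 73.0% were lower and 14.0% had such a p in either direction. High control values can carry a gene past the filter, as with Elf3 below, and the list was chosen with earlier results known. Nothing is therefore read from these counts.

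Defining duct markers showed the pattern clearly. Spp1, the secreted matrix protein osteopontin, was at 129, 22.5, 97.7 and 24.7 FPKM in libraries ctr_hEV 1 to 4 and at 16.9, 21.5, 36.0 and 19.9 in RIC_hEV 1 to 4. Macrophages of fatty livers also express it. Cd24a, a surface glycoprotein of duct progenitors, was at 16.9, 3.13, 9.26 and 2.22 FPKM in libraries ctr_hEV 1 to 4 and at 1.43 to 2.53 in RIC_hEV. Muc1, an apical mucin, was at 2.25, 0.454, 1.48 and 0.270 FPKM in libraries ctr_hEV 1 to 4 and at 0.0919 to 0.261 in RIC_hEV, and Cldn4, a further claudin of ducts, at 2.97, 0.384, 2.06 and 0.459 and at 0.120 to 0.511. In each of these, ctr_hEV 2 and 4 lay at or near the RIC_hEV range. Cftr, the chloride channel of ducts, was low throughout, at 0.244 and 0.191 FPKM in ctr_hEV 1 and 3 and at most 0.0257 elsewhere. Mmp7, a protease of injured bile ducts, had the largest difference of the list, -1.39 ± 0.50 (SE, limma adjusted p = 0.354), from 13.4, 2.44, 8.39 and 1.07 FPKM in ctr_hEV 1 to 4 to between 0.677 and 1.53 in RIC_hEV.

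The tetraspanin-like Tm4sf4 had the same 2 libraries on top with a smaller spread, at 259 ± 65.8 and 200 ± 17.2 FPKM. Others did not have that order. The water channel Aqp1 was at 55.2 ± 3.73 and 56.5 ± 3.42. Slc10a2, the bile acid importer of large ducts, was at 4.04 ± 1.55 and 5.32 ± 0.923 with its lowest value in ctr_hEV 1 (1.77). Lcn2, which hepatocytes also secrete in the acute phase, lay lower in RIC_hEV without overlap, at 274, 197, 337 and 176 FPKM in libraries ctr_hEV 1 to 4 and 108 to 127 in RIC_hEV (limma adjusted p = 0.214). Without ctr_hEV 1 and 3 its difference was -0.66, from -1.02. Without ctr_hEV 4, where 1.56% of tested genes were called, limma called it (adjusted p = 0.0259). The epithelial transcription factor Elf3 was then also past the threshold, but at 1.61 ± 0.568 FPKM in ctr_hEV and 0.567 ± 0.234 in RIC_hEV it had passed the filter only through the control libraries.

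**Figure D4:**
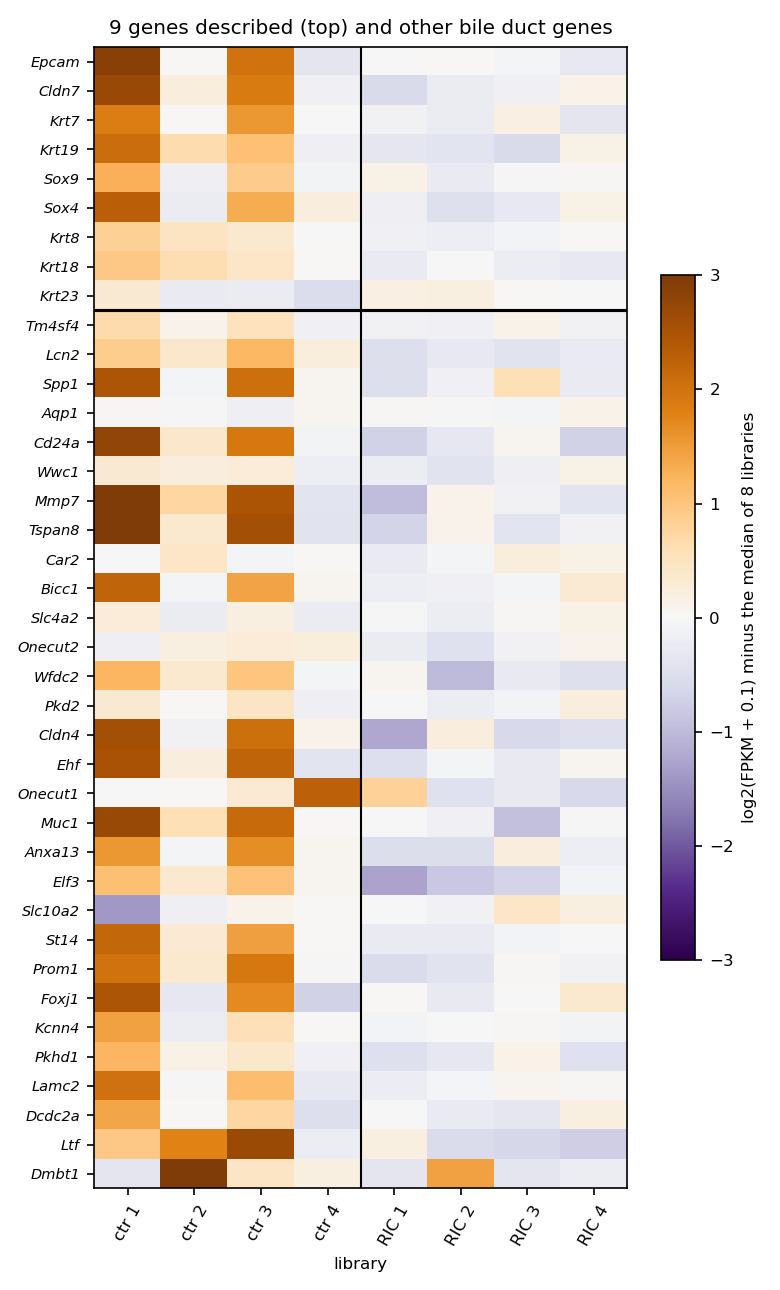
Colour gives log2(FPKM + 0.1) minus the median of the 8 libraries for each gene, with the 9 genes described above the thick line and below it 30 other bile duct genes with at least 0.5 FPKM in some library. Columns are libraries, and colours end at 3 and -3. The columns of ctr_hEV 1 and ctr_hEV 3 are high for most ductular genes, and Aqp1, Car2 and Slc10a2 do not follow.

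Genes of liver progenitors and fetal liver were lower in 9 of the 9 tested, with a median of -0.43, and -0.22 without ctr_hEV 1 and 3. None was called, and 5 had an unadjusted p under 0.05. Over all tested genes 73.0% were lower and 14.0% had such a p. The list was chosen with earlier results known, so nothing is read from these counts. H19, an imprinted non-coding RNA of fetal liver, was at 20.8, 5.02, 23.1 and 1.29 FPKM in libraries ctr_hEV 1 to 4 and at 0.388 to 0.990 in RIC_hEV, without overlap (-2.43 ± 0.63, limma adjusted p = 0.332, and 0.0176 without ctr_hEV 4). Its mean passed the filter only through the control libraries. Tnfrsf12a, the TWEAK receptor that drives duct outgrowth, was at 21.6 ± 5.2 and 14.2 ± 3.5 FPKM, and its ligand Tnfsf12 at 9.23 ± 2.0 and 8.43 ± 0.919. Cd44 was at 11.6 ± 3.67 and 7.87 ± 1.23, Prox1, a regulator of liver and duct fate, at 11.8 ± 1.52 and 9.21 ± 1.33, and Tbx3 at 2.27 ± 1.02 and 2.08 ± 0.246.

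Notch and YAP signalling are both known to drive biliary fate. Of 20 tested Notch genes 17 were lower and 3 higher, where 73.0% of all tested genes were lower. Their median was -0.18, -0.02 without ctr_hEV 1 and 3, and -0.04 with each library centred on its median. None was called and 4 had an unadjusted p under 0.05, where 14.0% of all tested genes had one. The ligand Jag1 was at 3.13, 1.01, 2.43 and 0.769 FPKM in libraries ctr_hEV 1 to 4 and at 0.668 to 1.32 in RIC_hEV, so only ctr_hEV 1 and 3 lay above the rest. The gamma-secretase subunits Psen2, Ncstn, Aph1a and Psenen lay between 11.4 and 19.8 FPKM in both groups on average. Of 22 tested YAP genes 19 were lower and 3 higher, with none called and 7 at an unadjusted p under 0.05. Their median was -0.24, -0.06 without ctr_hEV 1 and 3, and -0.11 with each library centred on its median. Both lists were chosen with earlier results known, and nothing is read from these counts. The YAP targets Cyr61 and Ctgf were at 11.7 ± 8.86 and 27.0 ± 16.3 FPKM in ctr_hEV and 5.25 ± 0.294 and 16.8 ± 4.29 in RIC_hEV. Without ctr_hEV 4, where 1.56% of tested genes were called, limma called Ajuba, a LIM protein that binds LATS kinases, as lower (-0.94, adjusted p = 0.0435).

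Keratins are anchored to desmosomes and bound by linker and stress proteins. Of 21 tested genes of desmosomes, linkers and other filaments 20 were lower (median -0.13, -0.05 without ctr_hEV 1 and 3, and 0.00 with each library centred on its median), none was called and 5 had an unadjusted p under 0.05. The shares over all tested genes were 73.0% lower and 14.0% at such a p. This list too was chosen with earlier results known, and nothing is read from its counts. Dsp, the desmosomal plaque protein to which keratins attach, was at 10.4, 9.01, 9.53 and 6.30 FPKM in libraries ctr_hEV 1 to 4 and at 4.78, 4.88, 5.57 and 6.97 in RIC_hEV 1 to 4, an overlap through ctr_hEV 4 and RIC_hEV 4 like that of Krt8 (limma adjusted p = 0.332). Sqstm1, the p62 protein of Mallory-Denk bodies, was at 245 ± 41.4 and 193 ± 9.64 FPKM, and Tgm2, the transglutaminase that cross-links keratins in them, at 68.8 ± 15.8 and 49.0 ± 4.79. The adaptor Ywhae was at 78.5 ± 8.10 and 76.4 ± 3.5. Without ctr_hEV 4, where 1.56% of tested genes were called, limma called Dsp, Dsg2 and Lmna as lower.

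Junction genes were lower in 17 of 20 tested, with none called and 6 at an unadjusted p under 0.05. Their median was -0.19, -0.12 without ctr_hEV 1 and 3, and -0.05 with each library centred on its median. For this list and the next, the shares over all tested genes were 73.0% lower and 14.0% at such a p. Both were chosen with earlier results known, and nothing is read from their counts. Cldn2 was at 35.0 ± 6.13 and 27.8 ± 2.44 FPKM and Cldn3 at 43.2 ± 9.14 and 40.3 ± 5.59. Marveld2, or tricellulin, was lowest of the list at -0.51 ± 0.15 (limma adjusted p = 0.332, and 0.0279 without ctr_hEV 4). Of 17 tested partners of EPCAM and adhesion genes 14 were lower (median -0.10, 0.03 without ctr_hEV 1 and 3, and 0.04 with each library centred on its median), none was called and 1, Cd9, had an unadjusted p under 0.05. Cd9, a tetraspanin that associates with EPCAM, was at 75.7, 37.4, 61.3 and 26.8 FPKM in libraries ctr_hEV 1 to 4 and at 23.0 to 33.0 in RIC_hEV, again with ctr_hEV 1 and 3 on top.

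No other keratin and few other SOX genes reached 1 FPKM on average. Of 37 further keratin genes in the table, a total of 27 were listed at 0 in every library, and Krt20 reached 0.710 FPKM in ctr_hEV 1. Of 17 further SOX genes 3 passed the filter, the endothelial Sox18 and Sox7 and Sox13. Sox18 was at 3.56 ± 1.24 and 4.50 ± 1.05 FPKM, and none was called or had an unadjusted p under 0.05.

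Markers of several other cell types had extreme values in the same libraries. The 11 hepatocyte markers went the opposite way in ctr_hEV 1 only, where their sum was lowest, at 29600 FPKM. It was 40300, 37000 and 44700 in ctr_hEV 2 to 4 and 36100 to 43100 in RIC_hEV, so ctr_hEV 3 lay within the RIC_hEV range. Of these 11 genes 10 were higher in RIC_hEV, with a median of 0.23, and 0.11 without ctr_hEV 1 and 3. None was called, and 4, all higher, had an unadjusted p under 0.05, where 14.0% of all tested genes had one. The lists of this paragraph were chosen with earlier results known, and nothing is read from their counts. The 12 stellate cell and fibroblast markers summed to 309, 144, 241 and 135 FPKM in libraries ctr_hEV 1 to 4 and to 126 to 167 in RIC_hEV. The 12 macrophage markers, Spp1 included, summed to 1270, 637, 954 and 632 FPKM and to 485 to 734. In both lists ctr_hEV 1 and 3 were highest, and 11 and 8 of the 12 genes had these as the 2 highest libraries. Their median differences were -0.36 and -0.27, and 0.07 and -0.01 without ctr_hEV 1 and 3. No gene of either list was called from all libraries. Cd14 was called as lower without ctr_hEV 4 (-1.23, limma adjusted p = 0.0286), where 1.56% of tested genes were called. The 10 endothelial markers summed to 107, 90.3, 88.8 and 88.8 FPKM in ctr_hEV 1 to 4 and to 85.0 to 118 in RIC_hEV. For 5 of them ctr_hEV 1 was the highest library, and for 0 of them were ctr_hEV 1 and 3 the 2 highest. Mesothelium, which also carries keratins, had low values. Its 10 markers summed to 2.67, 1.29, 2.01 and 2.59 FPKM in ctr_hEV 1 to 4 and to 1.57 to 2.33 in RIC_hEV. The sum was thus highest in ctr_hEV 1, while Bnc1 was listed at 0 in every library. Of 18 markers of gallbladder, gut and pancreas 6 were listed at 0 throughout, and the list summed to 95.1 FPKM in ctr_hEV 1, its lowest value, and up to 130 in RIC_hEV. In bulk tissue fewer cells of a type and less RNA per cell cannot be told apart, and the part of hepatocytes, stellate cells and macrophages in these differences was not tested.

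Among themselves, the 6 ductular genes varied as a block that rested on 2 libraries. After the mean of each group was removed, the correlations (Pearson) of log2(FPKM + 1) between their 15 pairs lay between 0.83 and 0.99 over 8 libraries. Without ctr_hEV 1 and 3 they lay between -0.92 and 0.73 over 6 libraries, with a median of 0.00. Over all 36 pairs of members the median went from 0.85 to 0.06. The points share libraries and depth and fall into separate groups, so these values are descriptions with no test. By the same measure, the tested genes most like Epcam were Prkar1a, Scara3 and Exo5 (0.992, 0.989 and 0.989). Scara3, a scavenger receptor-like protein, had a profile of similar height, at 9.34, 1.14, 5.17 and 0.854 FPKM in libraries ctr_hEV 1 to 4 and 0.713 to 1.04 in RIC_hEV. Like Krt19, Scara3 passed the filter only through the control libraries, so nothing is read from this likeness. The genes most like Krt19 were Lta4h, Fto and Usp48, those most like Sox9 Nudc, Rrp1 and Mier2, and those most like Sox4 P3h4, Agpat1 and Unc93b1. Pitpnm1, Mtor and Pip4k2b were most like Krt8, Sin3b, Pold3 and Trub2 most like Krt18, and Exoc7, Rtfdc1 and Tmem159 most like Krt23. No gene stood in 2 of these sets, and the lowest of these values was 0.982.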

How the data were processed

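The authors deposited FPKM values, 1 column for each of 8 liver libraries. Total RNA (Trizol) went into VAHTS libraries, per the labels' protocols. Build mm10 and the tools HISAT2 2.2.1, HTSeq 0.13.5, Trimmomatic 0.38, FastQC 0.11.9, DESeq2 1.18.1 and R 3.4.1 are listed in the submitters' processing notes. The sources used here do not give the program behind FPKM, its annotation or its strand setting. Of 55335 rows, 3225 without a gene name (0.176% to 0.207% of FPKM) were left out. Of rows sharing 1 of 80 symbols, that with the highest mean kept the symbol.

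Groups and replicate numbers came from the sample titles. RIC_hEV was compared with ctr_hEV on log2(FPKM + 1) where FPKM averaged 1 or more, with limma 3.58.1 (R 4.3.3), a mean-variance trend and Benjamini-Hochberg adjustment over all 11274 genes (two-sided, threshold 0.05). The fit was tested on simulated data. Depth was read from the most common step of FPKM times GENCODE M21 exon length. Between 15.6% and 17.3% of low values lay within 0.02 of whole steps, so no count model was used.

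The members and the 15 other gene lists (324 of 331 symbols matched) were chosen with earlier results of these data known. Named from each list were the 4 highest tested genes, both extremes and any gene called from all 8 libraries, besides the markers of each cell type. For each member the 3 tested genes with the closest profile were named. Muc1, Cldn4, Cftr and Cd24a are named as markers of bile duct cells. Ajuba, Car2, Cd14, Elf3, Dsg2, Lmna, Krt10, Krt20 and Krt8-ps were named after their values were seen. Alternatives were another pseudocount, filter, scaling or variance trend, a replicate block, and libraries left out.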

Additional observations from a re-analysis of the deposited data

How the results depend on the processing

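The median difference of the tested members stayed below 0 in every setting tried, from -0.85 without ctr_hEV 4 to -0.12 without ctr_hEV 1 and ctr_hEV 3 together, and Krt23 stayed above 0 and Krt8, Krt18 and Krt19 below it. Epcam and Sox9 turned from -0.92 and -0.34 to 0.04 and 0.05 without ctr_hEV 1 and 3. With a pseudocount of 0.1 Krt7 went from -0.30 to -0.98 and Cldn7 from -0.62 to -1.38, since a smaller pseudocount compresses low values less. Centring each library on its median moved the median of all tested genes from -0.11 to 0.03 and turned none of the 7 tested members. The count of called genes, 4 of 11274, was 2 without a filter, 1 with a mean FPKM of at least 5, 8 without ctr_hEV 1 and 3, and 1 to 176 with 1 library left out. The highest came without ctr_hEV 4, and 2, 1 and 1 came without RIC_hEV 1, 3 and 4. Of members 0 to 2 and of the other lists 0 to 9 genes were called with 1 library left out. The median of the other bile duct genes went from -0.47 to -0.15 without ctr_hEV 1 and 3. The median correlation among members, 0.85, went to 0.06 then, and lay between 0.59 (without ctr_hEV 1) and 0.93 with 1 library left out. The cause of these shifts was not tested. With the replicate number as a block 3 genes and no member were called. Deviations of libraries with the same number correlated at 0.052, 0.12, -0.009 and -0.227 across genes, so the numbers were not taken as pairs. Levels under about 0.1 FPKM rest on few fragments and their ratios are imprecise.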

Other observations

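A pair of bile duct genes peaked in a single library outside the pair ctr_hEV 1 and ctr_hEV 3, and were picked after their values were seen. Dmbt1, a mucin-like protein of injured ducts, was at 5.76 FPKM in ctr_hEV 2 and at most 0.250 in any other library. Onecut1, a transcription factor of hepatocytes and ducts, was at 11.2 FPKM in ctr_hEV 4 and between 1.46 and 4.03 in the others. Krt10, a keratin of stratified epithelia that healthy liver barely expresses, was low but even, at 0.568 ± 0.0242 FPKM in ctr_hEV and 0.705 ± 0.0323 in RIC_hEV, with no overlap. It lay below the filter and was not tested.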
